A study of Rattus norvegicus with 15 samples.

Results

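The Myocd-LSD1NF line of cultured rat aortic smooth muscle cells (SMC) was compared with control SMC, with 4 RNA-seq libraries of each out of 15 in the series. Library membership followed the sample names. Both groups were untreated aortic SMC, grown in DMEM/F12 with serum and starved for 72 h in a medium without serum or insulin before harvest. A second line, Myocd-LSD1 (4 libraries), and SMC given 30 ng/ml PDGF-BB for 24 h after 48 h of starvation (3 libraries) entered the statistical model and are otherwise used here only where stated. Per the series design, the Myocd-LSD1 fusion protein was made to demethylate histone H3 at lysine 4 (H3K4me2) at SMC genes, and the transcriptomes were compared to see the effects of that editing. The labels do not explain the letters NF, name the promoter of the construct or say whether the line came from 1 clone. Differences due to the construct and differences between cultures of a line and of control SMC cannot be told apart.

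Contractile genes of SMC are switched on by serum response factor, which binds CArG boxes in their promoters, together with its coactivator myocardin (Myocd). H3K4me2 marks active promoters and enhancers, and in SMC it persists at contractile genes even when the cells lose their contractile phenotype. LSD1, encoded by Kdm1a, removes methyl groups from that lysine. Cultured aortic SMC also make elastin, collagens and proteoglycans, and growth factors such as PDGF shift them from contraction towards division and matrix remodelling.

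Values are TPM, transcript abundances corrected for length and brought to 1 common total per library; they keep no read counts, so sequencing depth is unknown. No label states that the libraries of a group are separate cultures. The p-values therefore rest on the spread between these libraries, which may be technical. Log2 fold changes are Myocd-LSD1NF over control on the log2(TPM + 1) scale, ± SE, which understates changes of low genes, with n = 4 and 4 libraries. Adjusted p-values are limma's, two-sided, with Benjamini-Hochberg adjustment over 12207 genes, and a gene with an adjusted p under 0.05 was called, that is, it rose or fell.

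Myocd-LSD1NF 4 stood apart from the other libraries of its line. Its correlation with Myocd-LSD1NF 1 to 3 was 0.963 to 0.967 on the log scale, while those 3 correlated with each other at 0.983 to 0.987 and control libraries with each other at 0.978 to 0.988. More than 2-fold from the control mean were 938 genes in Myocd-LSD1NF 4 and 342 to 514 in Myocd-LSD1NF 1 to 3. Myocd-LSD1NF 4 lay at least 4-fold above the other 7 libraries at 12 genes and at least 4-fold below them at 46, on the log2(TPM + 1) scale. Among these, chosen after their values were seen, F13a1, a coagulation factor subunit, was at 0, 0, 0 and 14.9 TPM in Myocd-LSD1NF 1 to 4 and at most 0.02 TPM in the controls. Timp3, an inhibitor of matrix metalloproteases, was at 325, 327, 233 and 12.5 TPM in Myocd-LSD1NF 1 to 4, against 468, 404, 377 and 372 TPM in the controls. Values are therefore given by library, with what changed when a library was left out. Ptprc, Cdh5 and Sox10, defining markers of leukocytes, endothelium and glia, were listed at 0 in all 8 libraries. Of 20 leukocyte markers, 18 stayed under 1 TPM in every library and 9 were at 0, yet their summed level was 69.0 to 178 TPM in Myocd-LSD1NF, against 52.8 to 62.4 TPM in control, carried by Cd14 and Cd74. Sums overlapped for endothelial (25.9 to 37.6 against 25.6 to 36.9 TPM), neural (46.4 to 91.2 against 48.3 to 80.1 TPM) and fibroblast genes (6106 to 10759 against 6561 to 12005 TPM). The fibroblast sums were carried mostly by Postn, which averaged 7106 TPM in Myocd-LSD1NF and 8567 TPM in control. Of 15 fibroblast genes tested, 12 had a log2 fold change below 0 and 3 above 0. Epithelial and mesothelial markers summed to 103 to 122 TPM in Myocd-LSD1NF, against 82.6 to 99.0 TPM in control, with 13 of 21 under 1 TPM in all 8 libraries. Among them Lcn2 averaged 34.9 TPM in Myocd-LSD1NF and 14.4 TPM in control, and Dsp, desmoplakin, 36.5 and 26.6 TPM in Myocd-LSD1NF and control. Of the mesothelial markers, Lrrn4 was at 0.24, 1.21, 0.04 and 22.95 TPM in Myocd-LSD1NF 1 to 4, against 0.07, 0.35, 0.03 and 1.03 TPM in control 1 to 4, and Upk3b averaged 17.6 TPM in Myocd-LSD1NF and 23.0 TPM in control. The part of these markers in the results was not tested.

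More genes fell than rose. Of 12207 genes tested, 270 were called (2.21%), of which 58 were higher (0.475%) and 212 lower (1.74%) in Myocd-LSD1NF. The same split was 109 higher and 207 lower with median-of-ratios scaling, 95 and 175 with quantile normalization, and 318 and 601 with array weights. Called genes that changed at least 2-fold numbered 150 (1.23%), of which 23 were higher and 127 lower. Falls outnumbered rises in each of these. The median log2 fold change of all genes tested was -0.05. Values of the groups did not overlap for 259 of the 270 called genes, against 1214 of all genes tested (9.95%). Among the 212 lower genes 78 averaged under 1 TPM in Myocd-LSD1NF, and 13 of these averaged at least 5 TPM in control. Leaving out control 1, control 2, control 3 or Myocd-LSD1NF 2 gave 109, 112, 171 and 128 calls, and leaving out Myocd-LSD1NF 4 gave 312. In every one of the 8 fits that left out 1 library, 94 of the 270 genes were called (14 higher and 80 lower). Below, a call in every fit refers to the fit of all libraries and these 8. Some of those calls ended under other settings. With the spread taken from the 8 libraries alone, which called 176 genes, 137 of them shared, Tfap2a (adjusted p = 0.0558), Tbxa2r (adjusted p = 0.0572) and Nog (adjusted p = 0.0794) were not called. With a pseudocount of 0.1, Mageh1 (adjusted p = 0.132) and Pde1a (adjusted p = 0.0550) were not called, and with a pseudocount of 5 Nog was not (adjusted p = 0.0509).

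**Figure D1:**
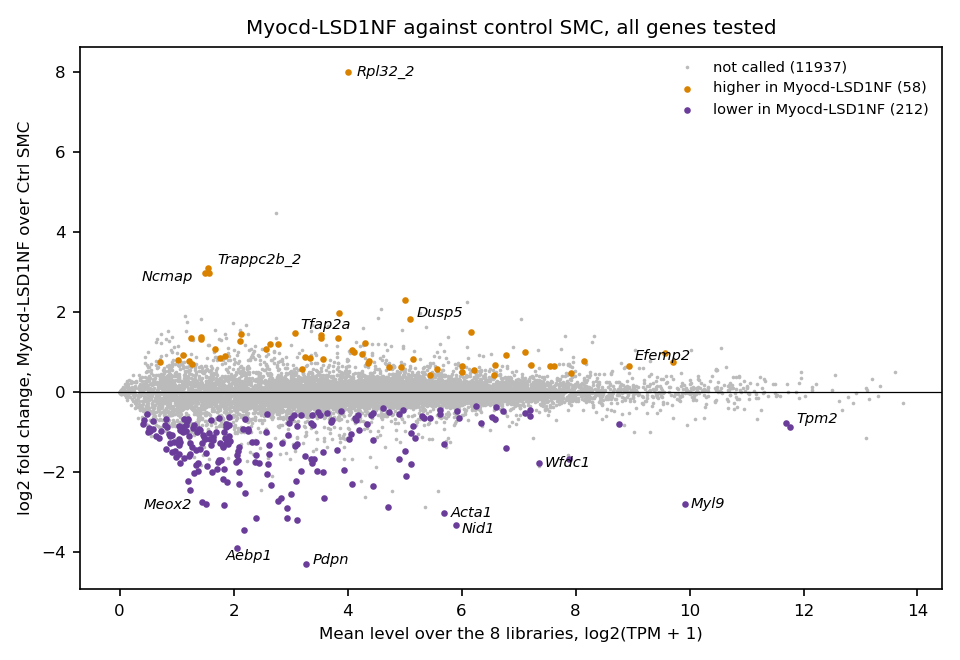
Log2 fold change of Myocd-LSD1NF over control (y axis) against the mean level of the 8 libraries as log2(TPM + 1) (x axis), 1 point per gene tested. The 212 falls reach below -4 (Pdpn) and lie mostly at low levels, with Myl9 and Tpm2 the most abundant of those labelled in the plot, and the 58 rises are mostly smaller, apart from Rpl32_2, the entry at the top.

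The genes of the fusion partners did not separate the groups. Myocd had 41.1, 49.6, 29.5 and 18.3 TPM in Myocd-LSD1NF 1 to 4, against 26.8, 26.2, 27.6 and 30.6 TPM in control 1 to 4 (adjusted p = 0.716). Kdm1a, the LSD1 gene, had 50.6, 61.9, 54.7 and 49.1 TPM in Myocd-LSD1NF 1 to 4, against 57.9, 54.6, 57.5 and 50.4 TPM in control 1 to 4 (adjusted p = 0.92). The ranges of Myocd-LSD1NF and control overlapped for both, so these values do not check that a construct was present. The labels do not say how reads from a fusion transcript would be assigned.

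Among contractile genes, 4 fell and 0 rose out of 37 tested, beside 1.74% of all genes tested called lower and 0.475% called higher. The median log2 fold change of the list was -0.40, beside -0.05 for all genes, with 33 of 37 below 0. In 6 of the 37 all Myocd-LSD1NF values lay under all control values, beside 7.23% of all genes tested. The 4 were a myosin light chain, smooth muscle gamma actin, beta tropomyosin and a Z-line protein. Myl9, the regulatory light chain through which smooth muscle myosin is activated, had 462, 445, 671 and 129 TPM in Myocd-LSD1NF 1 to 4, against 2772, 3155, 2755 and 1771 TPM in control 1 to 4. Every Myocd-LSD1NF library lay below every control library, and Myl9 fell (log2 fold change -2.80 ± 0.40, adjusted p = 0.00124), in every fit. Actg2, gamma actin of visceral smooth muscle, had 0.86, 5.77, 1.85 and 0.21 TPM in Myocd-LSD1NF 1 to 4, against 28.2, 15.6, 25.96 and 19.5 TPM in control 1 to 4. Actg2 fell in every fit (log2 fold change -3.15 ± 0.41, adjusted p = 0.000739). Ldb3, a PDZ-LIM protein of the Z-line, had 2.45, 2.3, 2.38 and 1.99 TPM in Myocd-LSD1NF 1 to 4, against 6, 8, 7.48 and 5.68 TPM in control 1 to 4. The Myocd-LSD1NF values lay close together under the controls, and this fall was also called in every fit (log2 fold change -1.24 ± 0.22, adjusted p = 0.00723). Tpm2, which winds along actin filaments, had 2865, 2413, 3668 and 1758 TPM in Myocd-LSD1NF 1 to 4, against 4359, 5515, 5369 and 3859 TPM in control 1 to 4. Tpm2 fell (log2 fold change -0.87 ± 0.19, adjusted p = 0.029) but was not called without control 1, 2 or 3 or Myocd-LSD1NF 2 (adjusted p = 0.0699 to 0.103). Fewer contractile cells and less RNA per cell cannot be told apart in such bulk samples.

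Acta2 and Tagln, the most abundant genes of the contractile list, were not called, nor were Cnn1 and Myh11. Acta2, smooth muscle alpha actin, had 10748, 10729, 11982 and 3979 TPM in Myocd-LSD1NF 1 to 4, against 9197, 9789, 10783 and 9103 TPM in control 1 to 4 (log2 fold change -0.17 ± 0.31, adjusted p = 0.839). Myocd-LSD1NF 1 to 3 stood at the top of the control range or above it and Myocd-LSD1NF 4 far under it. The log2 fold change turned to 0.20 without Myocd-LSD1NF 4 and to 0.034 with array weights, again without a call. Tagln, transgelin, had 5369, 6125, 7007 and 4289 TPM in Myocd-LSD1NF 1 to 4, against 7277, 7724, 8907 and 6806 TPM in control 1 to 4 (log2 fold change -0.45 ± 0.20, adjusted p = 0.296). Cnn1, calponin, had 566, 726, 927 and 812 TPM in Myocd-LSD1NF 1 to 4, against 1219.7, 1485, 1543 and 1109 TPM in control 1 to 4. The groups did not overlap for Cnn1, but the difference was not called (log2 fold change -0.83 ± 0.69, adjusted p = 0.617). That SE takes its spread from all 15 libraries, including Myocd-LSD1 and PDGF-BB, so it does not measure the spread of the compared libraries alone. Cnn1 was called with the compared groups alone and a replicate block (adjusted p = 0.0398). Myh11, smooth muscle myosin heavy chain, had 19.9, 13, 13.5 and 3.55 TPM in Myocd-LSD1NF 1 to 4, against 23.03, 18.5, 22.8 and 21.7 TPM in control 1 to 4 (log2 fold change -0.93 ± 0.41, adjusted p = 0.287). Summed over the list, contractile genes came to 24576 to 40862 TPM in Myocd-LSD1NF and 38818 to 47839 TPM in control. The list's median difference from the control mean was -0.28, -0.39, -0.14 and -0.86 in Myocd-LSD1NF 1 to 4, against -0.13, 0.12, 0.14 and -0.20 in control 1 to 4, each control being set against the other 3. Myocd-LSD1NF 4 was lowest and Myocd-LSD1NF 3 lay within the range of the controls.

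Striated muscle genes gave 3 falls and 0 rises among 15 tested (median log2 fold change -0.48). Counts in this and the following lists stand beside 1.74% of all genes tested called lower and 0.475% called higher. Acta1, skeletal alpha actin, had 19.6, 34.8, 41.2 and 2.45 TPM in Myocd-LSD1NF 1 to 4, against 206, 119, 207 and 88.2 TPM in control 1 to 4. Acta1 fell (log2 fold change -3.02 ± 0.59, adjusted p = 0.0154) with no overlap between the groups, and was not called without control 1 (adjusted p = 0.0589). The coding sequences of the actin genes are nearly identical, so how the authors' counting divided shared reads could affect Acta1, Acta2 and Actg2. Ckm, muscle creatine kinase, had 0.06, 0.29, 0.38 and 0 TPM in Myocd-LSD1NF 1 to 4, against 2.7, 2.11, 2.96 and 1.54 TPM in control 1 to 4. It was close to 0 in Myocd-LSD1NF and fell in every fit (log2 fold change -1.48 ± 0.17, adjusted p = 0.000197). Tnnt3, fast skeletal troponin T, had 0.7 to 1.05 TPM in Myocd-LSD1NF and 2.13 to 3.52 TPM in control. Its fall was called with all libraries (log2 fold change -0.95 ± 0.23, adjusted p = 0.0442) and in 0 of the 8 fits that left out 1, with adjusted p between 0.0522 and 0.151.

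The RefSeq promoter windows of called genes (GRCr8, 250 bases before to 50 after the start) were searched for CArG boxes. A box was taken as 10 bases, CC, then only A or T, then GG, and boxes with a mismatch were not counted. Such a box was present in 1.64% of 33469 windows and 1.26% of the 8266 windows of genes tested. Among contractile genes tested, 2 of 29 windows (6.90%) held it. Among called genes with a window, 4 of 138 lower genes (2.90%) and 1 of 33 higher genes (3.03%) had one. A match on either strand is a description and not a binding site. The windows of Acta1 (chr19:68784145-68784444, minus strand), Ldb3 (chr16:9924630-9924929, minus strand) and Dusp5 (chr1:262543524-262543823, plus strand) are shown 5′ to 3′ because they hold such boxes in genes that changed in opposite directions, with the boxes in capitals.
Acta1: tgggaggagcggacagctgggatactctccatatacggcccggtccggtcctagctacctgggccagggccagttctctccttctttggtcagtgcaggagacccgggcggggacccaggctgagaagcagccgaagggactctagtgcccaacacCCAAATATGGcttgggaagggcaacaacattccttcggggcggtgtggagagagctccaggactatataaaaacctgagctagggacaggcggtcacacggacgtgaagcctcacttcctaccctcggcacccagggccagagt
Ldb3: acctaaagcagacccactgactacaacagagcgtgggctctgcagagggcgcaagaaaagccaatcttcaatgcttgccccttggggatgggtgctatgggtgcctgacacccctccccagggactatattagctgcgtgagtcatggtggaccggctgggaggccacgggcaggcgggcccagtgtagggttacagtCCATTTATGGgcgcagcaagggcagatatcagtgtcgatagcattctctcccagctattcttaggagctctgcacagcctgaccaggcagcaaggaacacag
Dusp5: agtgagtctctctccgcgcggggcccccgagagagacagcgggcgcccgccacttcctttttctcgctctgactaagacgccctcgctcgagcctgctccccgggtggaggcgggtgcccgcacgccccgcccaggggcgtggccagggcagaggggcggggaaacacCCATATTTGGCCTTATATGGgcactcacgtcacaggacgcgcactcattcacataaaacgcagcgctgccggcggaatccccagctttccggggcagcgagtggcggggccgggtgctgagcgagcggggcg
The box began 94 bases before the start in Acta1 and 52 bases before it in Ldb3, both genes that fell. Dusp5, a gene that rose, held a pair of adjoining boxes that began 82 and 72 bases before the start. No exact box was found in the window of Actg2. That window covers only the bases next to the annotated start, so boxes elsewhere in the gene's promoter would be missed.

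Proteoglycans of the small leucine-rich family, which bind collagen fibrils, gave 4 falls among 22 proteoglycan genes tested and 0 rises, while the median of the list was 0.04. Lum, lumican, had 0.95, 2.21, 1.26 and 3.4 TPM in Myocd-LSD1NF 1 to 4, against 26.5, 21.6, 31.3 and 8.37 TPM in control 1 to 4. Lum fell in every fit (log2 fold change -2.89 ± 0.43, adjusted p = 0.00176). Omd, osteomodulin, had 1.96, 1.31, 3.82 and 0.55 TPM in Myocd-LSD1NF 1 to 4, against 22.2, 23.9, 21.2 and 6.57 TPM in control 1 to 4. Omd fell in every fit (log2 fold change -2.72 ± 0.40, adjusted p = 0.00157), and control 4 was well under the other controls. Ogn, osteoglycin, had 20.6, 8.8, 14.4 and 1.63 TPM in Myocd-LSD1NF 1 to 4, against 41.5, 38.2, 64.1 and 53.5 TPM in control 1 to 4. Ogn fell (log2 fold change -2.36 ± 0.55, adjusted p = 0.0387) but was not called without control 1, 2, 3 or 4 or Myocd-LSD1NF 2 (adjusted p = 0.0717 to 0.102). Aspn, asporin, had 3.61, 0.27, 0.42 and 0 TPM in Myocd-LSD1NF 1 to 4, against 7.89, 19.6, 4.8 and 3.07 TPM in control 1 to 4. Its groups overlapped, through Myocd-LSD1NF 1 and control 4, and Aspn fell (log2 fold change -2.26 ± 0.51, adjusted p = 0.0315) but was not called without control 1, 2 or 3 or Myocd-LSD1NF 2, 3 or 4 (adjusted p = 0.0517 to 0.106).

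Of 34 genes for collagens and collagen-processing proteins, 4 fell and 1 rose (median -0.08). Aebp1, a collagen-binding matrix protein, had 0.02, 0.11, 0.09 and 0.1 TPM in Myocd-LSD1NF 1 to 4, against 17, 10.97, 14.4 and 18.97 TPM in control 1 to 4. It was listed near 0 in each Myocd-LSD1NF library and fell in every fit (log2 fold change -3.89 ± 0.18, adjusted p = 1.5e-08). Col11a1, a fibrillar collagen chain best known from cartilage, had 157, 158, 119.7 and 102 TPM in Myocd-LSD1NF 1 to 4, against 543, 421, 347 and 404 TPM in control 1 to 4. PCOLCE2, an enhancer of procollagen processing, had 34.7, 32.7, 37.7 and 24.9 TPM in Myocd-LSD1NF 1 to 4, against 99.6, 74.3, 87.2 and 64.2 TPM in control 1 to 4. Both fell by less than Aebp1 and were called in every fit (log2 fold change -1.67 ± 0.27, adjusted p = 0.0041 for Col11a1, and log2 fold change -1.29 ± 0.22, adjusted p = 0.00477 for PCOLCE2). Col9a2, a collagen of cartilage fibrils, had 0.47 to 1.32 TPM in Myocd-LSD1NF and 1.47 to 3.2 TPM in control. Col9a2 fell (log2 fold change -0.91 ± 0.20, adjusted p = 0.0293) but was not called without control 1, 3 or 4 or Myocd-LSD1NF 1, 2 or 3 (adjusted p = 0.0591 to 0.0932). Col18a1, the basement membrane collagen that releases endostatin, went the other way and had 1044, 1381, 763 and 1192 TPM in Myocd-LSD1NF 1 to 4, against 596, 496, 427 and 667 TPM in control 1 to 4. Col18a1 rose (log2 fold change 0.99 ± 0.21, adjusted p = 0.0221) but was not called without control 1, 2 or 3 or Myocd-LSD1NF 2 (adjusted p = 0.0524 to 0.0764).

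Other matrix genes fell to very different remaining levels. Nid1, nidogen, which joins laminin to collagen IV, had 46.7, 44.5, 34.4 and 0.65 TPM in Myocd-LSD1NF 1 to 4, against 208, 208, 158 and 189 TPM in control 1 to 4. Myocd-LSD1NF 1 to 3 kept some expression and Myocd-LSD1NF 4 almost none. Nid1 fell (log2 fold change -3.34 ± 0.76, adjusted p = 0.032), was the 1 call among 16 basement membrane genes tested, and was not called without control 1, 2, 3 or 4 (adjusted p = 0.0585 to 0.0999). Pdpn, podoplanin, a membrane glycoprotein known from lymphatic endothelium, had 1.51, 2.13, 1.71 and 0.05 TPM in Myocd-LSD1NF 1 to 4, against 57.99, 61.1, 45.3 and 19.7 TPM in control 1 to 4. It showed the largest fall of all genes named here, called in every fit (log2 fold change -4.32 ± 0.37, adjusted p = 1.46e-05). Fbln1, fibulin, a glycoprotein of elastic fibres and basement membranes, had 0.89, 1.26, 0.7 and 0.3 TPM in Myocd-LSD1NF 1 to 4, against 11.2, 35.8, 7.8 and 14.1 TPM in control 1 to 4. Fbln1 fell in every fit (log2 fold change -3.16 ± 0.45, adjusted p = 0.00147), and control 2 was the highest control. Matn4, a matrilin, had 0.84, 0.72, 0.83 and 1.15 TPM in Myocd-LSD1NF 1 to 4, against 3.39, 4.28, 3.23 and 2.31 TPM in control 1 to 4 and fell in every fit (log2 fold change -1.18 ± 0.16, adjusted p = 0.000754). Matn3, another matrilin, had 1.61 to 8.92 TPM in Myocd-LSD1NF and 13.2 to 18.2 TPM in control. Matn3 fell (log2 fold change -1.61 ± 0.34, adjusted p = 0.0232) but was not called without control 1, 2 or 3 or Myocd-LSD1NF 2 (adjusted p = 0.0555 to 0.0796). Serpinf1, the secreted antiangiogenic factor PEDF, had 66.4, 54.8, 51.7 and 108 TPM in Myocd-LSD1NF 1 to 4, against 170.1, 166, 140.4 and 254 TPM in control 1 to 4. Serpinf1 fell (log2 fold change -1.39 ± 0.27, adjusted p = 0.0166) and was not called without Myocd-LSD1NF 2 (adjusted p = 0.0589). In the list of fibroblast matrix genes 4 of 15 fell and 0 rose (Fbln1, Lum, Ogn and Serpinf1, all described above under other lists), with a median of -0.43. By library that median was -0.55, -0.59, -0.75 and -0.16 in Myocd-LSD1NF 1 to 4, against 0.14, 0.24, -0.15 and -0.07 in control 1 to 4, so Myocd-LSD1NF 4 lay next to control 3.

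**Figure D2:**
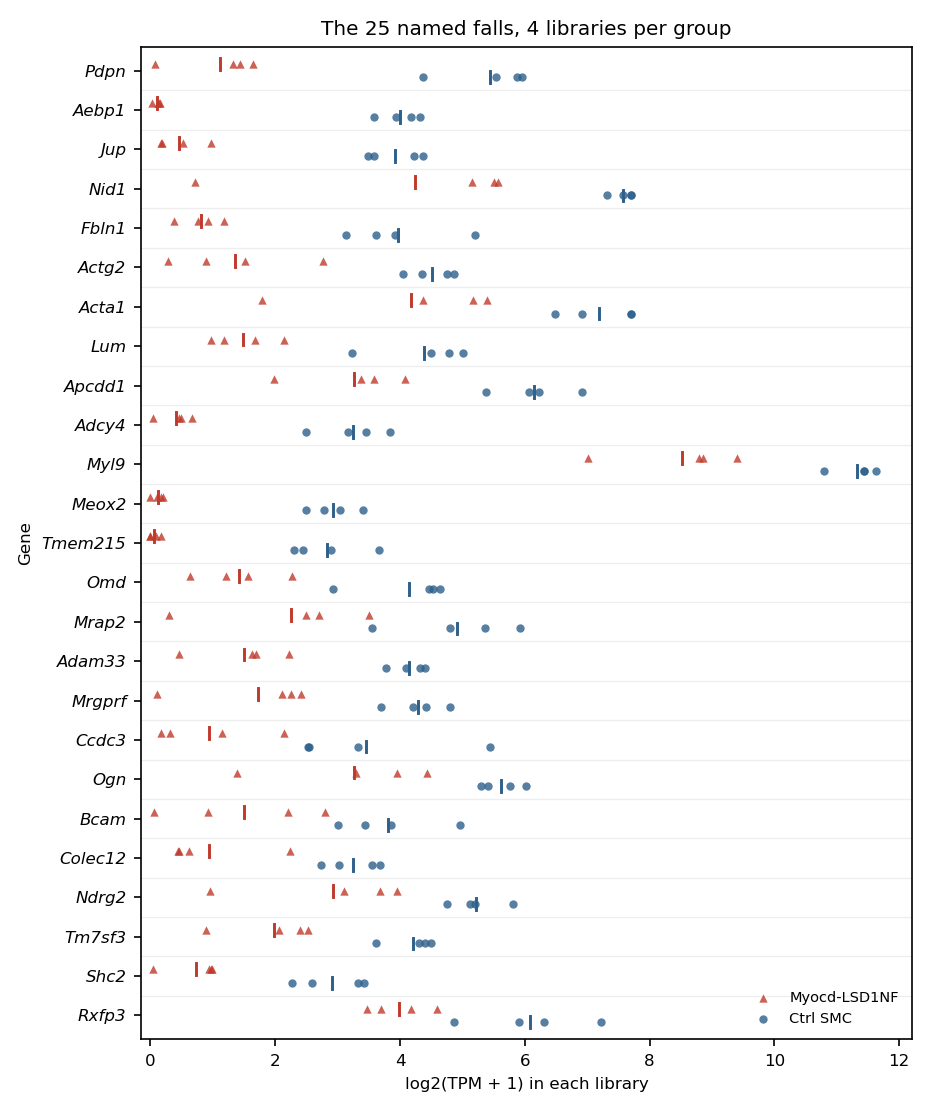
Levels as log2(TPM + 1) of the 25 named falls in each library, with triangles for Myocd-LSD1NF above circles for control in each row and a bar at each group mean. The groups do not overlap in any row, which the rule for naming required, and the Myocd-LSD1NF values of Nid1, Mrap2, Mrgprf and Ndrg2 spread through a single low library, Myocd-LSD1NF 4.

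The list of Wnt signalling genes gave 3 falls and 0 rises among 33 tested (median -0.22). Frat2, which promotes Wnt signalling, and Ptk7, of planar cell polarity, are outside that list and rose, as described below. Apcdd1, a membrane inhibitor of Wnt signalling, had 15.9, 9.42, 11.04 and 2.96 TPM in Myocd-LSD1NF 1 to 4, against 73.5, 119, 40.7 and 66.2 TPM in control 1 to 4. Apcdd1 fell in every fit (log2 fold change -2.89 ± 0.40, adjusted p = 0.00102). Wnt9a, a ligand, had 0.48 to 0.86 TPM in Myocd-LSD1NF and 1.6 to 2.49 TPM in control. Wnt9a fell (log2 fold change -0.97 ± 0.19, adjusted p = 0.0172) but was not called without control 1 or 2 or Myocd-LSD1NF 2 (adjusted p = 0.0563 to 0.0651). Axin2, a Wnt target and feedback inhibitor, had 1.27 to 2.06 TPM in Myocd-LSD1NF and 2.56 to 4.24 TPM in control. Its call (log2 fold change -0.65 ± 0.16, adjusted p = 0.0491) was lost in all 8 fits that left out 1 library, with adjusted p between 0.0607 and 0.169. Among 43 TGF-beta and BMP genes, 2 fell and 0 rose (median 0.02). Nog, noggin, an antagonist of BMP ligands, had 0.21, 0.19, 0.45 and 0.12 TPM in Myocd-LSD1NF 1 to 4, against 2.21, 2.67, 1.15 and 8.08 TPM in control 1 to 4. Bmpr1b, a BMP receptor, had 1.98, 1.04, 1.58 and 0.51 TPM in Myocd-LSD1NF 1 to 4, against 4.84, 5.7, 3.81 and 4.23 TPM in control 1 to 4. The groups were apart for both, and both fell in every fit (log2 fold change -1.65 ± 0.32, adjusted p = 0.0143 for Nog, and log2 fold change -1.34 ± 0.24, adjusted p = 0.0088 for Bmpr1b).

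Transcription factors of development moved in both directions, with 3 falls and 2 rises among 50 tested (median 0.18). Meox2, a homeobox factor known for restraining growth of vascular SMC, had 0.15, 0.13, 0.08 and 0 TPM in Myocd-LSD1NF 1 to 4, against 7.2, 5.84, 9.58 and 4.62 TPM in control 1 to 4. Msx2, a homeobox factor downstream of BMP, had 0.04, 0.16, 0.09 and 0 TPM in Myocd-LSD1NF 1 to 4, against 1.34, 2.71, 1.85 and 1.74 TPM in control 1 to 4. Both were listed near 0 in every Myocd-LSD1NF library and fell in every fit (log2 fold change -2.80 ± 0.20, adjusted p = 1.73e-06 for Meox2, and log2 fold change -1.42 ± 0.15, adjusted p = 0.000117 for Msx2). Eya1, a transcriptional coactivator and phosphatase, had 0.82, 1.56, 0.86 and 0.49 TPM in Myocd-LSD1NF 1 to 4, against 4.47, 5.67, 4.02 and 6.97 TPM in control 1 to 4 and fell in every fit (log2 fold change -1.71 ± 0.23, adjusted p = 0.001). Tfap2a, the AP-2 alpha factor known from neural crest, had 10.8, 12.1, 10.3 and 21.03 TPM in Myocd-LSD1NF 1 to 4, against 3.12, 3.98, 2.73 and 7.59 TPM in control 1 to 4. Tfap2a rose in every fit (log2 fold change 1.47 ± 0.26, adjusted p = 0.0071), and Myocd-LSD1NF 4 was the highest library. Runx1, a Runt-domain factor, had 20.2, 27.6, 22.1 and 33.5 TPM in Myocd-LSD1NF 1 to 4, against 9.86, 11.2, 12.7 and 18.8 TPM in control 1 to 4. Runx1 rose (log2 fold change 0.94 ± 0.18, adjusted p = 0.0132) but was not called without control 1 or 2 (adjusted p = 0.0546 to 0.0552).

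Called genes in the lists of cell adhesion genes and clustered protocadherins fell. Outside the lists, Cdh17, a cadherin, and Itgax, an integrin chain, rose and were chosen after their values were seen. Cdh17 averaged 1.15 TPM in Myocd-LSD1NF and 0.26 TPM in control (log2 fold change 0.76 ± 0.18, adjusted p = 0.0442). Itgax averaged 3.46 TPM in Myocd-LSD1NF and 0.73 TPM in control (log2 fold change 1.33 ± 0.27, adjusted p = 0.0206). Of the 8 fits that left out 1 library, 2 called Cdh17 and 5 called Itgax. Jup, plakoglobin, a catenin of desmosomes and adherens junctions, had 0.12, 0.44, 0.14 and 0.95 TPM in Myocd-LSD1NF 1 to 4, against 17.8, 19.6, 10.2 and 11 TPM in control 1 to 4. It was the 1 call among 28 cell adhesion genes and fell in every fit (log2 fold change -3.46 ± 0.23, adjusted p = 1.34e-06). Pcdhga2 and Pcdhb20, clustered protocadherins of neuronal recognition, were the 2 falls among 14 tested (median -0.38), beside 1.74% of all genes. Pcdhga2 had 2.19, 1.41, 1.57 and 3.34 TPM in Myocd-LSD1NF 1 to 4, against 8.22, 8.62, 7.53 and 7.89 TPM in control 1 to 4. Pcdhb20 had 1.42, 1.17, 1.48 and 2.03 TPM in Myocd-LSD1NF 1 to 4, against 4.66, 4.05, 4.34 and 3.24 TPM in control 1 to 4. Both were called in every fit (log2 fold change -1.57 ± 0.18, adjusted p = 0.000197 for Pcdhga2, and log2 fold change -1.01 ± 0.14, adjusted p = 0.000845 for Pcdhb20), though members of these clusters are alike in sequence and the gamma genes share exons, so counts could be divided among them. Bcam, a laminin receptor, had 5.97, 0.9, 3.62 and 0.04 TPM in Myocd-LSD1NF 1 to 4, against 13.5, 30.3, 9.79 and 7.02 TPM in control 1 to 4. Bcam fell (log2 fold change -2.32 ± 0.51, adjusted p = 0.029) but was not called without control 1, 2 or 3 or Myocd-LSD1NF 2 (adjusted p = 0.0517 to 0.105).

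Signalling genes that fell included enzymes and receptors. Adcy4, an adenylyl cyclase that makes cyclic AMP, had 0.41, 0.03, 0.58 and 0.37 TPM in Myocd-LSD1NF 1 to 4, against 9.95, 13.4, 8 and 4.64 TPM in control 1 to 4 and fell in every fit (log2 fold change -2.83 ± 0.23, adjusted p = 9.58e-06). Pde1a, which breaks down cyclic nucleotides, had 0.86, 1.23, 0.61 and 2.37 TPM in Myocd-LSD1NF 1 to 4, against 3.91, 5.8, 3.25 and 4.42 TPM in control 1 to 4. It was the 1 call among 14 nitric oxide and cyclic GMP genes (median -0.34) and was called in every fit (log2 fold change -1.27 ± 0.22, adjusted p = 0.00639). Among 32 genes for G protein-coupled receptors and their partners, 2 fell and 1 rose (median 0.12). Tbxa2r, the thromboxane receptor that contracts vessels, had 3.18, 4.16, 3.69 and 1.24 TPM in Myocd-LSD1NF 1 to 4, against 9.66, 10.1, 10.1 and 6.02 TPM in control 1 to 4 and fell in every fit (log2 fold change -1.33 ± 0.25, adjusted p = 0.0111). S1pr1, a sphingosine 1-phosphate receptor, had 0.95 to 4.04 TPM in Myocd-LSD1NF and 6.46 to 7.91 TPM in control. S1pr1 fell (log2 fold change -1.24 ± 0.27, adjusted p = 0.0267) but was not called without control 1, 2 or 3 or Myocd-LSD1NF 2 (adjusted p = 0.0613 to 0.0918). Npy1r, a neuropeptide Y receptor, had 5.59, 7.14, 5.74 and 6.6 TPM in Myocd-LSD1NF 1 to 4, against 2.12, 1.36, 1.38 and 1.89 TPM in control 1 to 4. Npy1r rose in every fit (log2 fold change 1.44 ± 0.18, adjusted p = 0.000462). Slc8a1, the sodium-calcium exchanger, had 5.02 to 6.49 TPM in Myocd-LSD1NF and 8.34 to 12.9 TPM in control. It was the 1 call among 32 calcium and ion channel genes (log2 fold change -0.86 ± 0.19, adjusted p = 0.0293) and was not called without control 1, 3 or 4 or Myocd-LSD1NF 1, 2, 3 or 4 (adjusted p = 0.052 to 0.0817).

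Mrgprf, an orphan receptor, had 4.31, 3.31, 3.76 and 0.08 TPM in Myocd-LSD1NF 1 to 4, against 11.9, 26.97, 20.4 and 17.5 TPM in control 1 to 4, and Adam33, a membrane metalloprotease, had 2.23, 2.08, 3.68 and 0.37 TPM in Myocd-LSD1NF 1 to 4, against 16.2, 19.1, 20.01 and 12.8 TPM in control 1 to 4. Both fell in every fit (log2 fold change -2.56 ± 0.40, adjusted p = 0.0026 for Mrgprf, and log2 fold change -2.65 ± 0.33, adjusted p = 0.000462 for Adam33). Tmem215 had 0.06, 0, 0.12 and 0 TPM in Myocd-LSD1NF 1 to 4, against 3.91, 4.45, 6.46 and 11.7 TPM in control 1 to 4 and fell in every fit (log2 fold change -2.76 ± 0.24, adjusted p = 1.46e-05). Tm7sf3 had 4.27, 3.19, 4.79 and 0.86 TPM in Myocd-LSD1NF 1 to 4, against 21.6, 20.1, 18.8 and 11.3 TPM in control 1 to 4 and also fell in every fit (log2 fold change -2.23 ± 0.33, adjusted p = 0.0018). The remaining named falls each lost their call in some fit. Mrap2, an accessory protein of melanocortin receptors, had 0.23 to 10.4 TPM in Myocd-LSD1NF and 10.8 to 59.7 TPM in control (log2 fold change -2.66 ± 0.59, adjusted p = 0.0293) and was not called without control 1, 2 or 3 or Myocd-LSD1NF 2 or 3 (adjusted p = 0.0546 to 0.105). Ccdc3 had 0.12 to 3.4 TPM in Myocd-LSD1NF and 4.76 to 42.4 TPM in control (log2 fold change -2.52 ± 0.56, adjusted p = 0.0294) and was not called without control 1 or 2 or Myocd-LSD1NF 2, 3 or 4 (adjusted p = 0.0574 to 0.0919). Colec12, a scavenger receptor, had 0.36 to 3.72 TPM in Myocd-LSD1NF and 5.66 to 11.8 TPM in control (log2 fold change -2.30 ± 0.47, adjusted p = 0.0206) and was not called without control 1 or 2 or Myocd-LSD1NF 1, 2 or 3 (adjusted p = 0.0542 to 0.0746). Ndrg2 had 0.94 to 14.5 TPM in Myocd-LSD1NF and 26.1 to 55.03 TPM in control (log2 fold change -2.30 ± 0.50, adjusted p = 0.0258) and was not called without control 1, 2 or 3 or Myocd-LSD1NF 2 (adjusted p = 0.0609 to 0.0953). Shc2, an adaptor of tyrosine kinases, had 0.03 to 0.98 TPM in Myocd-LSD1NF and 3.82 to 9.69 TPM in control (log2 fold change -2.17 ± 0.46, adjusted p = 0.0249) and was not called without control 1 or 2 or Myocd-LSD1NF 2 or 4 (adjusted p = 0.0514 to 0.0925). Rxfp3, a relaxin-3 receptor, had 10.1 to 23.1 TPM in Myocd-LSD1NF and 28.1 to 149 TPM in control (log2 fold change -2.10 ± 0.49, adjusted p = 0.0389) and was not called without control 1, 2 or 4 or Myocd-LSD1NF 2, 3 or 4 (adjusted p = 0.0521 to 0.139).

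Imprinted genes gave 2 falls and 0 rises among 18 tested (median -0.08). Nnat, neuronatin, had 0.69, 1.32, 0.43 and 0 TPM in Myocd-LSD1NF 1 to 4, against 6.69, 4.74, 5.88 and 3.86 TPM in control 1 to 4. Snurf, which shares its transcript with Snrpn, had 20.8, 31.1, 25.8 and 17.3 TPM in Myocd-LSD1NF 1 to 4, against 49, 38.2, 60.7 and 48.9 TPM in control 1 to 4. Both fell in every fit (log2 fold change -2.01 ± 0.26, adjusted p = 0.000717 for Nnat, and log2 fold change -1.03 ± 0.17, adjusted p = 0.00425 for Snurf), and Snurf reads may overlap with those of Snrpn. Outside the lists and chosen after their values were seen, Wfdc1, a secreted protease inhibitor of stroma, had 114, 57.03, 107 and 87.3 TPM in Myocd-LSD1NF 1 to 4, against 305, 317, 282 and 311 TPM in control 1 to 4 and fell in every fit (log2 fold change -1.77 ± 0.23, adjusted p = 0.000739). Pmp22, a protein of peripheral myelin, had 6.17, 3.77, 5.72 and 3.6 TPM in Myocd-LSD1NF 1 to 4, against 21.7, 16.6, 13.8 and 17.8 TPM in control 1 to 4 and fell in every fit (log2 fold change -1.68 ± 0.16, adjusted p = 3.21e-05). Clmp, a junctional adhesion protein, had 0.11, 0.05, 0.07 and 0.03 TPM in Myocd-LSD1NF 1 to 4, against 2.26, 4.1, 3.38 and 7.45 TPM in control 1 to 4 and fell in every fit (log2 fold change -2.23 ± 0.30, adjusted p = 0.000754). Heph, a copper-dependent ferroxidase, was listed at 0 in 3 Myocd-LSD1NF libraries and had 0, 0.02, 0 and 0 TPM in Myocd-LSD1NF 1 to 4, against 5.82, 5.29, 2.8 and 4.78 TPM in control 1 to 4. It fell (adjusted p = 0.029) but was not called without control 1, 2 or 4 or Myocd-LSD1NF 1, 2 or 3 (adjusted p = 0.054 to 0.093). Heph was called with the compared groups alone (adjusted p = 0.000481). Dstn, an actin depolymerizing factor and among the most abundant falls, had 2923, 2369, 2869 and 2091 TPM in Myocd-LSD1NF 1 to 4, against 4609.7, 6257, 3872 and 3125 TPM in control 1 to 4. Dstn fell (log2 fold change -0.77 ± 0.18, adjusted p = 0.0397) but was not called without control 1, 2 or 3 or Myocd-LSD1NF 1, 2, 3 or 4 (adjusted p = 0.0503 to 0.121). Atp1b3, a sodium pump subunit, had 259 to 386 TPM in Myocd-LSD1NF and 476 to 718 TPM in control. Atp1b3 fell (log2 fold change -0.79 ± 0.19, adjusted p = 0.045) but was not called without control 1, 2 or 3 or Myocd-LSD1NF 1, 2, 3 or 4 (adjusted p = 0.0507 to 0.158).

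Of the 15 named rises, 4 were called in all 8 fits that left out a library (Tfap2a, Npy1r, Mybl1 and Mageh1), beside 15 of the 25 named falls. With the compared groups alone, 6 of the 15 named rises and 17 of the 25 named falls were called. The named rises had log2 fold changes of 0.85 to 1.84. Dusp5, a nuclear phosphatase that inactivates ERK and is induced by ERK signalling, had 51.5, 80.9, 67.1 and 59.8 TPM in Myocd-LSD1NF 1 to 4, against 16.7, 12.8, 17.6 and 23.2 TPM in control 1 to 4. The lowest Myocd-LSD1NF library was above the highest control, and Dusp5 rose (log2 fold change 1.84 ± 0.37, adjusted p = 0.0177) but was not called without control 1 or 2 or Myocd-LSD1NF 2 (adjusted p = 0.0577 to 0.0696). Dusp5 was called with the compared groups alone (adjusted p = 0.00256). It was the 1 rise among 39 ERK feedback genes, whose 1 fall was Fgfr1, an FGF receptor, with 12.1 to 40.3 TPM in Myocd-LSD1NF and 46.6 to 66.9 TPM in control (log2 fold change -1.14 ± 0.27, adjusted p = 0.0377). Fgfr1 was not called without control 1, 2 or 3 or Myocd-LSD1NF 2 (adjusted p = 0.0817 to 0.137). Mybl1, the A-Myb transcription factor, had 18.04, 30.9, 17.5 and 22.7 TPM in Myocd-LSD1NF 1 to 4, against 8.4, 6.31, 8.42 and 8.86 TPM in control 1 to 4. Mageh1, of the MAGE family, had 27.9, 23.1, 24.2 and 19.3 TPM in Myocd-LSD1NF 1 to 4, against 13.9, 9.97, 14.04 and 8.13 TPM in control 1 to 4. Both rose in every fit (log2 fold change 1.35 ± 0.20, adjusted p = 0.0018 for Mybl1, and log2 fold change 0.999 ± 0.17, adjusted p = 0.00568 for Mageh1).

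Several rises belonged to matrix or enzyme genes. Comp, cartilage oligomeric matrix protein, had 7.21, 7.98, 8.59 and 10.5 TPM in Myocd-LSD1NF 1 to 4, against 2.76, 2.45, 4.64 and 2.92 TPM in control 1 to 4. Comp rose (log2 fold change 1.21 ± 0.26, adjusted p = 0.0279) but was not called without control 1, 2 or 4 or Myocd-LSD1NF 2, 3 or 4 (adjusted p = 0.054 to 0.0983). Of 12 cartilage and bone genes Comp rose while Col11a1 and Matn3 fell, and of 21 matricellular genes Comp rose while Pdpn and Matn4 fell. Cyp1b1, a cytochrome P450, had 161, 188, 176 and 266 TPM in Myocd-LSD1NF 1 to 4, against 86.5, 62.05, 142 and 114 TPM in control 1 to 4. Cyp1b1 rose (log2 fold change 0.998 ± 0.23, adjusted p = 0.0355) but was not called without control 1 or 2 or Myocd-LSD1NF 2, 3 or 4 (adjusted p = 0.0583 to 0.115). Ptk7, a pseudokinase of planar cell polarity, had 131, 215, 117 and 157 TPM in Myocd-LSD1NF 1 to 4, against 68.6, 79.8, 69.2 and 104 TPM in control 1 to 4. Ptk7 rose (log2 fold change 0.92 ± 0.20, adjusted p = 0.0279) but was not called without control 1, 2 or 3 or Myocd-LSD1NF 2 (adjusted p = 0.0792 to 0.0927). Lfng, a glycosyltransferase that modifies Notch receptors, had 9.48, 13.7, 10.4 and 14.8 TPM in Myocd-LSD1NF 1 to 4, against 6.16, 4.74, 5.82 and 7.81 TPM in control 1 to 4. It was the 1 call among 17 Notch genes (log2 fold change 0.87 ± 0.19, adjusted p = 0.0252) and was not called without control 1, 2 or 3 or Myocd-LSD1NF 2 or 4 (adjusted p = 0.0527 to 0.093). Cox14, an assembly factor of cytochrome c oxidase, had 16.1 to 21.4 TPM in Myocd-LSD1NF and 2.03 to 11.2 TPM in control (log2 fold change 1.36 ± 0.32, adjusted p = 0.042) and was not called without control 1 or 2 or Myocd-LSD1NF 1, 2, 3 or 4 (adjusted p = 0.0726 to 0.0908). Acat2l1 had 10.5 to 16.04 TPM in Myocd-LSD1NF and 5.35 to 8.14 TPM in control (log2 fold change 0.85 ± 0.20, adjusted p = 0.0408) and was not called without control 1, 2 or 4 or Myocd-LSD1NF 1, 2, 3 or 4 (adjusted p = 0.0569 to 0.14). S100a11, a calcium-binding protein chosen after its values were seen, was among the most abundant rises. It had 960.2, 1221, 983 and 1205 TPM in Myocd-LSD1NF 1 to 4, against 755, 735, 600.5 and 505 TPM in control 1 to 4. S100a11 rose (log2 fold change 0.76 ± 0.17, adjusted p = 0.029) but was not called without control 2, 3 or 4 or Myocd-LSD1NF 2 or 4 (adjusted p = 0.0532 to 0.0883).

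**Figure D3:**
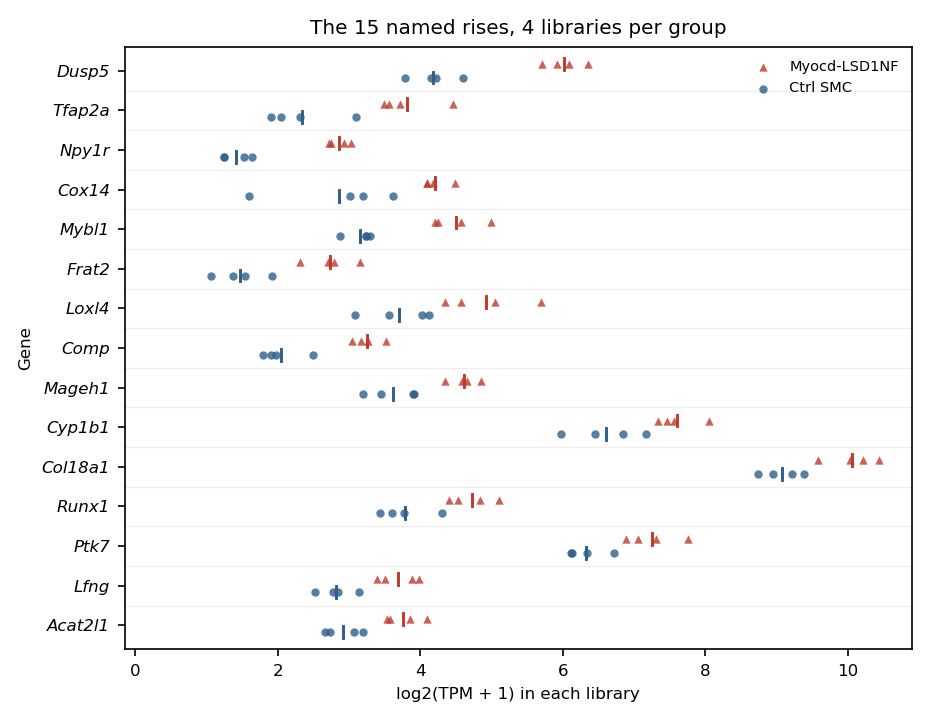
Levels as log2(TPM + 1) of the 15 named rises in each library, with triangles for Myocd-LSD1NF above circles for control in each row and a bar at each group mean. The groups do not overlap in any row, which the rule for naming required, and the gaps between them are narrow for Runx1, Ptk7, Cyp1b1, Col18a1 and Loxl4.

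Further lists held a single call each or 1 in each direction. Ntrk2, a neurotrophin receptor, had 4.84, 1.05, 3.98 and 4.95 TPM in Myocd-LSD1NF 1 to 4, against 0.19, 0.27, 1.12 and 1.5 TPM in control 1 to 4. The groups overlapped through Myocd-LSD1NF 2, and its rise (log2 fold change 1.37 ± 0.31, adjusted p = 0.0348), the 1 call among 39 axon guidance genes, was not called without control 1, 2 or 3 or Myocd-LSD1NF 1, 3 or 4 (adjusted p = 0.0517 to 0.127). Akr1c14, an aldo-keto reductase with closely related copies, had 0 to 0.07 TPM in Myocd-LSD1NF and 0.64 to 1.79 TPM in control (log2 fold change -0.96 ± 0.22, adjusted p = 0.0294) and was not called without control 1, 2 or 3 or Myocd-LSD1NF 1, 2 or 3 (adjusted p = 0.0617 to 0.0911). Cd59, an inhibitor of complement, had 78.1, 78.6, 82.3 and 58.8 TPM in Myocd-LSD1NF 1 to 4, against 131, 124, 133 and 79.3 TPM in control 1 to 4, with the groups overlapping through control 4. Cd59 fell (log2 fold change -0.62 ± 0.15, adjusted p = 0.0461) but was not called without control 1, 2 or 3 or Myocd-LSD1NF 1, 2, 3 or 4 (adjusted p = 0.0584 to 0.155). Rplp2, a ribosomal stalk protein, had 301 to 486 TPM in Myocd-LSD1NF and 188 to 237 TPM in control. It was the 1 call among 44 ribosomal protein genes (log2 fold change 0.78 ± 0.19, adjusted p = 0.0452) and was not called without control 1, 2, 3 or 4 or Myocd-LSD1NF 1, 2 or 3 (adjusted p = 0.0614 to 0.151).

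The 5 entries with the largest fold changes among the rises were 3 numbered copies of repeated symbols, which can share reads with their namesakes, 1 entry without a gene name, and Ncmap, all named after their values were seen. Rpl32_2, a copy of a ribosomal protein gene, had 135, 287, 450.1 and 254 TPM in Myocd-LSD1NF 1 to 4, against 0, 0, 0 and 0 TPM in control 1 to 4. It was listed at 0 in the 4 controls and in Myocd-LSD1 1 and 2, and at 304 and 60.5 TPM in Myocd-LSD1 3 and 4. Its call (adjusted p = 0.0315) was lost in all 8 fits that left out 1 library, with adjusted p between 0.0515 and 0.093. Trappc2b_2, a copy of a trafficking complex gene, had 9.91, 11.5, 4.5 and 6.47 TPM in Myocd-LSD1NF 1 to 4, against 0, 0, 0 and 0 TPM in control 1 to 4. It was listed at 0 in every control and was called in every fit (adjusted p = 0.00944). LOC100911956, the entry without a gene name, had 4.81, 6.53, 12.4 and 7.18 TPM in Myocd-LSD1NF 1 to 4, against 0, 0.27, 0 and 0 TPM in control 1 to 4, and rose (log2 fold change 2.97 ± 0.58, adjusted p = 0.0152). LOC100911956 was not called without control 1 (adjusted p = 0.0509). Cttn_2, a copy of cortactin, had 63.6, 104, 72.8 and 50.4 TPM in Myocd-LSD1NF 1 to 4, against 15.3, 12.1, 15.3 and 11.4 TPM in control 1 to 4 and was not called without control 1, 2, 3 or 4 or Myocd-LSD1NF 1, 2 or 3 (adjusted p = 0.0719 to 0.113). Ncmap, known from peripheral myelin, had 13.8, 14.1, 16.5 and 0 TPM in Myocd-LSD1NF 1 to 4, against 0, 0, 0 and 0 TPM in control 1 to 4, so the rise was present in 3 of 4 Myocd-LSD1NF libraries. It was called (adjusted p = 0.0266) but was not called without control 1, 2 or 3 or Myocd-LSD1NF 1, 2 or 3 (adjusted p = 0.0618 to 0.0834), and without Myocd-LSD1NF 4 its adjusted p was 6.16e-10. With the compared groups alone, the adjusted p was 8.77e-06 for Rpl32_2, 0.000591 for Trappc2b_2, 0.000667 for LOC100911956, 0.00138 for Cttn_2 and 0.127 for Ncmap.

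Genes of elastic fibres moved in opposite directions, with 2 rises and 1 fall among 18 tested (median 0.27). Efemp2, fibulin-4, which assembles elastin with lysyl oxidase, had 637, 718, 583 and 539.8 TPM in Myocd-LSD1NF 1 to 4, against 401, 381, 369 and 408 TPM in control 1 to 4. Efemp2 rose in every fit (log2 fold change 0.66 ± 0.10, adjusted p = 0.0018). Loxl4, a lysyl oxidase-like enzyme that cross-links elastin and collagen, had 22.8, 32.1, 19.3 and 50.8 TPM in Myocd-LSD1NF 1 to 4, against 10.8, 15.3, 7.44 and 16.4 TPM in control 1 to 4. Loxl4 rose (log2 fold change 1.22 ± 0.29, adjusted p = 0.0419) but was not called without control 1, 2 or 3 or Myocd-LSD1NF 1, 2 or 4 (adjusted p = 0.0503 to 0.125). The fall was Fbln1. Eln, elastin itself, had 7791, 7798, 8543 and 2292 TPM in Myocd-LSD1NF 1 to 4, against 14327, 11322, 15036 and 11473 TPM in control 1 to 4. The groups did not overlap, with Myocd-LSD1NF 4 lowest, yet Eln was not called (log2 fold change -1.14 ± 0.51, adjusted p = 0.294).

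Efemp2 and Loxl4, like Acta2, lay in a run of neighbouring genes that was raised in Myocd-LSD1NF 1 to 3. Along the RefSeq gene order, a running median of 101 genes passed 0.15 on the log2 scale in 1 run of at least 50 genes, between Cyp2r1 and Arl3, which held 536 of 10614 placed genes (5.05%). The median log2 difference of these 536 genes from the control mean, centred on each library's own median, was 0.36, 0.41, 0.32 and -0.04 in Myocd-LSD1NF 1 to 4. In the other 11 libraries it was between -0.04 and 0.04. The run held 14 of the 41 placed genes called higher and 7 of the 191 called lower. Efemp2, Loxl4, Frat2, Rplp2 and Tspan4 were among its rises, and Mrgprf and Tnnt3 among its falls. Frat2, which binds GSK3 and promotes Wnt signalling, had 5.92, 7.93, 5.5 and 3.95 TPM in Myocd-LSD1NF 1 to 4, against 1.09, 2.77, 1.6 and 1.91 TPM in control 1 to 4. Frat2 rose (log2 fold change 1.26 ± 0.27, adjusted p = 0.0227) but was not called without control 1 or 3 or Myocd-LSD1NF 1 or 2 (adjusted p = 0.0529 to 0.0819). Tspan4, a tetraspanin chosen after its values were seen, had 238, 241, 241 and 214 TPM in Myocd-LSD1NF 1 to 4, against 137, 151, 160.3 and 143 TPM in control 1 to 4 and rose in every fit (log2 fold change 0.66 ± 0.11, adjusted p = 0.00439). Without the run, 241 genes were called, 43 higher and 198 lower. The part of the run in the rises of its members was not tested.

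**Figure D4:**
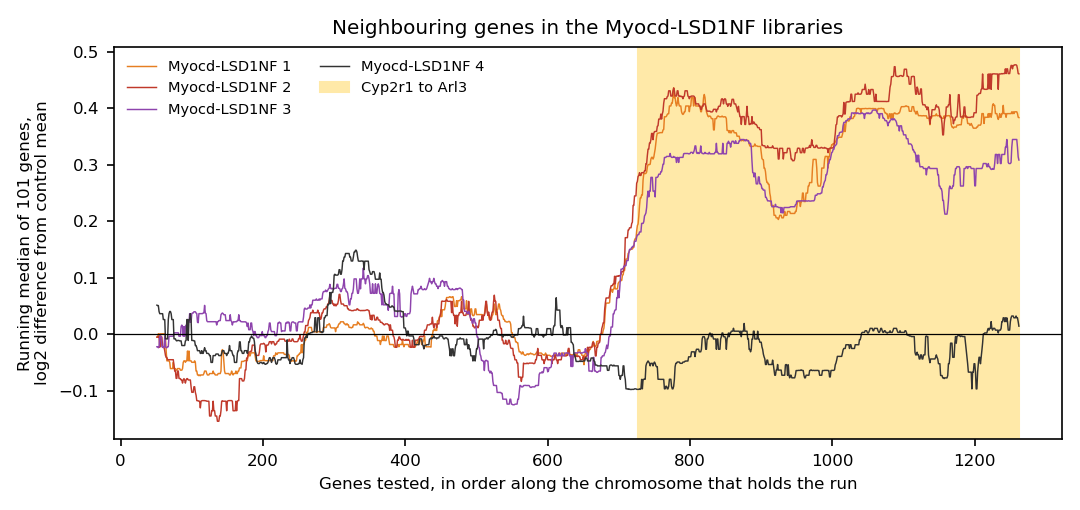
Running median over 101 genes of the centred log2 difference from the control mean (y axis) along the order of genes tested on the chromosome that holds the run (x axis), 1 line per Myocd-LSD1NF library. Inside the shaded stretch between Cyp2r1 and Arl3, Myocd-LSD1NF 1 to 3 lie mostly between 0.2 and 0.5 and Myocd-LSD1NF 4 stays near 0.

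Of 48 lists, 23 held 0 called genes, among them those for SMC regulators, early response, DNA replication, mitosis, inflammation, interferon response, H3K4 enzymes and cholesterol synthesis. The 23 include a list for X inactivation with 0 genes tested, which could hold no call, and lists of Y-linked and leukocyte genes with 3 tested in each. Of 39 mitotic genes tested 38 had a log2 fold change above 0, with a median of 0.27 and 0 calls. Their median by library was 0.12, 0.86, -0.37 and 0.45 in Myocd-LSD1NF 1 to 4, against 0.16, -0.17, -0.47 and 0.48 in control 1 to 4. Both groups spanned values under and over 0, and Myocd-LSD1NF 2 was highest. Plk1, a mitotic kinase, had 26.3, 50.4, 16.5 and 26.1 TPM in Myocd-LSD1NF 1 to 4, against 17.2, 14.8, 12.02 and 21.2 TPM in control 1 to 4 (log2 fold change 0.75 ± 0.36, adjusted p = 0.336). Ccnd2, a D-type cyclin among 42 DNA replication and cell cycle entry genes with 0 calls, had 0.37, 1.91, 0.13 and 0.41 TPM in Myocd-LSD1NF 1 to 4, against 6.76, 4.72, 1.08 and 4.44 TPM in control 1 to 4 (log2 fold change -1.58 ± 0.45, adjusted p = 0.0899), and was called without control 3 (adjusted p = 0.0303) and with array weights (adjusted p = 0.0314). Early response genes (27 tested, median 0.13) stood at -0.16, 0.02, 0.06 and 0.44 in Myocd-LSD1NF 1 to 4, against -0.68, -0.48, 0.44 and 0.76 in control 1 to 4. Fosl1, an AP-1 factor of that list, had 27.9, 62.7, 43.9 and 98.7 TPM in Myocd-LSD1NF 1 to 4, against 12.9, 2.98, 26.8 and 69.1 TPM in control 1 to 4 (log2 fold change 1.56 ± 0.65, adjusted p = 0.254). For cholesterol synthesis (36 tested, median 0.20) the values were 0.12, -0.03, -0.03 and 0.60 in Myocd-LSD1NF 1 to 4, against 0.12, -0.19, 0.06 and -0.02 in control 1 to 4, and Myocd-LSD1NF 4 was highest. Among 40 H3K4 methylation and repressor enzymes with a median of -0.04, Rcor2, a partner of LSD1, had 15.4, 13.2, 10.8 and 9.7 TPM in Myocd-LSD1NF 1 to 4, against 3.49, 4.57, 5.63 and 8.93 TPM in control 1 to 4. The groups did not overlap, and Rcor2 was not called (log2 fold change 1.04 ± 0.29, adjusted p = 0.0793), except without control 4 (adjusted p = 0.0318) and with array weights (adjusted p = 0.0062). Rcor2, Fosl1 and Plk1 lie in the run between Cyp2r1 and Arl3. Among 28 regulators of SMC, Mef2a, a contractile gene activator, had 50.1, 44.6, 52.9 and 42.9 TPM in Myocd-LSD1NF 1 to 4, against 70.3, 79.2, 75.4 and 64.1 TPM in control 1 to 4 (log2 fold change -0.59 ± 0.18, adjusted p = 0.107). The groups did not overlap for Mef2a, and it was called lower with the compared groups alone (adjusted p = 0.0224), also with a replicate block (adjusted p = 0.0305), and with array weights (adjusted p = 0.0195). Lcn2, lipocalin, a gene of acute inflammation, had 35.7, 40.7, 38.3 and 24.96 TPM in Myocd-LSD1NF 1 to 4, against 11.1, 15.02, 13.8 and 17.9 TPM in control 1 to 4. It was above every control in each Myocd-LSD1NF library without passing the test (log2 fold change 1.21 ± 0.32, adjusted p = 0.0652). Lcn2 was called higher with the compared groups alone (adjusted p = 0.0154), also with a replicate block (adjusted p = 0.0447), with median-of-ratios scaling (adjusted p = 0.0454), with array weights (adjusted p = 0.00925) and without Myocd-LSD1NF 4 (adjusted p = 0.0482).

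**Figure D5:**
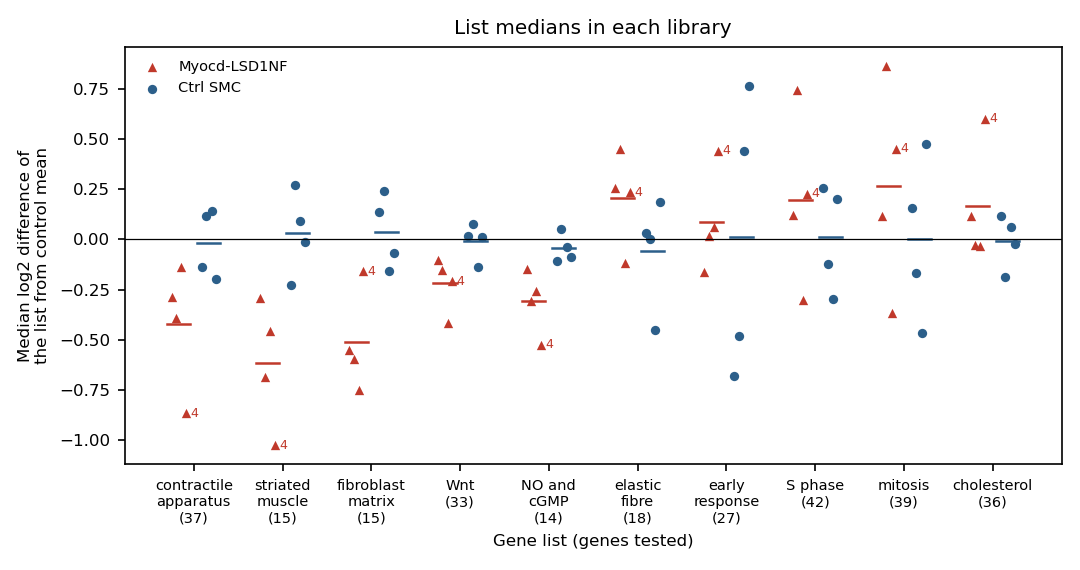
Median over each list of the log2 difference from the control mean (y axis) in every library, with triangles for Myocd-LSD1NF to the left of circles for control, a bar at the mean of the 4 libraries, Myocd-LSD1NF 4 marked, and each control set against the other 3. The groups overlap for the contractile, Wnt, elastic fibre, early response, S phase, mitosis and cholesterol lists, and Myocd-LSD1NF 4 gives the lowest contractile and the highest cholesterol value.

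Among the genes low in Myocd-LSD1NF, some were also low in the Myocd-LSD1 line and others were not. The direct comparison of Myocd-LSD1NF with Myocd-LSD1 called 31.8% of genes, 19.1% lower and 12.7% higher in Myocd-LSD1NF. Of the 25 named falls, 6 were lower in Myocd-LSD1NF than in Myocd-LSD1, 5 were higher and 14 were not called. They were chosen for low values in the same Myocd-LSD1NF libraries, so the levels are given side by side as a description. Adcy4 had 0.41, 0.03, 0.58 and 0.37 TPM in Myocd-LSD1NF 1 to 4, against 11.3, 9.86, 7.97 and 8.25 TPM in Myocd-LSD1 1 to 4 (log2 fold change -2.95 ± 0.23 over Myocd-LSD1, adjusted p = 3.37e-07). Adam33 had 2.23, 2.08, 3.68 and 0.37 TPM in Myocd-LSD1NF 1 to 4, against 20.02, 18.01, 14.9 and 20.7 TPM in Myocd-LSD1 1 to 4 (log2 fold change -2.77 ± 0.33 over Myocd-LSD1, adjusted p = 1.81e-05). Eya1, a developmental factor outside the 25, had 0.82, 1.56, 0.86 and 0.49 TPM in Myocd-LSD1NF 1 to 4, against 26.1, 27.6, 14.5 and 28.98 TPM in Myocd-LSD1 1 to 4 (log2 fold change -3.69 ± 0.23 over Myocd-LSD1, adjusted p = 3.3e-08). In these 3 genes, every Myocd-LSD1 library was above every Myocd-LSD1NF library. Pmp22 had 6.17, 3.77, 5.72 and 3.6 TPM in Myocd-LSD1NF 1 to 4, against 162, 147, 128 and 148 TPM in Myocd-LSD1 1 to 4 (log2 fold change -4.69 ± 0.16 over Myocd-LSD1, adjusted p = 9.13e-11). Tm7sf3, Fbln1, Apcdd1 and Colec12 were the other named falls with lower values in Myocd-LSD1NF than in Myocd-LSD1. Myl9 was the reverse, with 462, 445, 671 and 129 TPM in Myocd-LSD1NF 1 to 4, against 64.9, 57.1, 119 and 49.5 TPM in Myocd-LSD1 1 to 4 (log2 fold change 2.40 ± 0.40 over Myocd-LSD1, adjusted p = 0.000354). Nid1 had 46.7, 44.5, 34.4 and 0.65 TPM in Myocd-LSD1NF 1 to 4, against 0.14, 0.05, 0.24 and 0 TPM in Myocd-LSD1 1 to 4 (log2 fold change 4.10 ± 0.76 over Myocd-LSD1, adjusted p = 0.000866). Mrgprf, Mrap2 and Ogn were also higher in Myocd-LSD1NF. Meox2 had 0.15, 0.13, 0.08 and 0 TPM in Myocd-LSD1NF 1 to 4, against 0, 0, 0 and 0 TPM in Myocd-LSD1 1 to 4. Aebp1 had 0.02, 0.11, 0.09 and 0.1 TPM in Myocd-LSD1NF 1 to 4, against 0.67, 0.14, 0.25 and 0.08 TPM in Myocd-LSD1 1 to 4. Both genes were near 0 in the 2 lines, and neither differed by the test (log2 fold change 0.12 ± 0.20 over Myocd-LSD1, adjusted p = 0.674 for Meox2, and log2 fold change -0.23 ± 0.18 over Myocd-LSD1, adjusted p = 0.347 for Aebp1).

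Among the rises, Mageh1 had 27.9, 23.1, 24.2 and 19.3 TPM in Myocd-LSD1NF 1 to 4, against 0, 0, 0.23 and 0 TPM in Myocd-LSD1 1 to 4 (log2 fold change 4.54 ± 0.17 over Myocd-LSD1, adjusted p = 1.72e-10). Of the 15 named rises, 7 were higher in Myocd-LSD1NF than in Myocd-LSD1, 1 was lower and 7 were not called. Of all genes tested, 12.7% were called higher and 19.1% lower. The named rises were chosen for high values in the same Myocd-LSD1NF libraries, so these counts and levels are only a description. Npy1r had 5.59, 7.14, 5.74 and 6.6 TPM in Myocd-LSD1NF 1 to 4, against 3.67, 3.25, 2.18 and 2.49 TPM in Myocd-LSD1 1 to 4 (log2 fold change 0.91 ± 0.18 over Myocd-LSD1, adjusted p = 0.00127). Dusp5 had 51.5, 80.9, 67.1 and 59.8 TPM in Myocd-LSD1NF 1 to 4, against 114, 55.9, 181 and 45.03 TPM in Myocd-LSD1 1 to 4, levels that were not called different (log2 fold change -0.41 ± 0.37 over Myocd-LSD1, adjusted p = 0.424).

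Promoter windows of the genes that fell held fewer CpG dinucleotides than those of all genes tested. The median was 14 per 300-base window over the 138 lower genes with a window, 12 over the 87 that fell at least 2-fold, 19 over the 33 higher genes and 22 over the 8266 genes tested. At least 15 CpG were found in 49.3%, 41.4%, 72.7% and 75.0% of these windows. The lower genes were also less abundant, with a median control level of 6.99 TPM, against 19.9 TPM for all genes tested and 9.40 TPM for the higher genes, and the part of abundance in the CpG difference was not tested. Single genes lay far from these medians, and the windows of 2 genes that fell in every fit are shown 5′ to 3′ with each CG in capitals, Aebp1 with 25 (chr14:84952604-84952903, plus strand) and Omd with 3 (chr17:15274821-15275120, minus strand), from RefSeq GRCr8.
Aebp1: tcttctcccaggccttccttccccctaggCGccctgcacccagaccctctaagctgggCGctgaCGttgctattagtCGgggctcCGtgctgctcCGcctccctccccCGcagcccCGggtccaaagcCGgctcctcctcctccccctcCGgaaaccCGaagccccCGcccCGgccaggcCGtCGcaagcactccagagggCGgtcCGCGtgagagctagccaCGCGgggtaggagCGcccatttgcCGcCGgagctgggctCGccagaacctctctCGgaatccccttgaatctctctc
Omd: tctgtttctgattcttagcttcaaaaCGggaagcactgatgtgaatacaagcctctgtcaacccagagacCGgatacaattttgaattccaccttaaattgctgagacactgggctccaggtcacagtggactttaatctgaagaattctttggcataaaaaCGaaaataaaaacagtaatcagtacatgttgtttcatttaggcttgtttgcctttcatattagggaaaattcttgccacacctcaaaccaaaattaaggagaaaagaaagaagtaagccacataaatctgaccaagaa
Aebp1 was listed near 0 in Myocd-LSD1NF with a CpG-rich window (69.0% G and C), and Omd was lower at 0.55 to 3.82 TPM, against 6.57 to 23.9 TPM in control, with a CpG-poor one (37.7%). Pdpn and Meox2, both also low, had 9 and 7 CpG, and Jup had 25.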

How the data were processed

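RNA from rat aortic SMC was extracted with an RNeasy kit and DNase I and made into TruSeq Stranded poly(A) libraries, per the labels. The authors deposited 1 table of TPM values, per the file header, with 32623 entries and 15 library columns; its 4 mean columns were not used, and the sources used here name no aligner, counter or genome build. TPM keep no depth.

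Genes with at least 1 TPM in at least 3 of 15 libraries were tested (12207, with 20416 excluded). Values were taken as log2(TPM + 1), and limma 3.58.1 in R 4.3.3 fitted 1 mean per group to all libraries (eBayes with trend, two-sided, Benjamini-Hochberg). Python 3.11.15 and matplotlib 3.10.9 were used for summaries. The procedure was tested on simulated data. Alternatives were other pseudocounts (0.1 and 5), no filter, testing only genes averaging 5 TPM, quantile normalization, median-of-ratios scaling, a replicate block, the compared groups alone, array weights, and leaving out each library or a run of neighbouring genes. A fit of the compared groups alone with a replicate block was added after seeing the data.

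Named genes were the 25 largest falls and 15 largest rises among called genes whose higher group averaged 5 TPM or more, whose groups did not overlap and with a symbol that is neither a locus identifier nor a numbered copy. Called members of 48 gene lists, up to 2 members of lists without a call, Myocd, Kdm1a, Acta2, Tagln, Myh11 and Cnn1 were added, and not every gene taken is printed. The comparison, the lists and the run of genes were chosen with earlier results of these data known. Promoter windows and gene order came from RefSeq GRCr8, matched by symbol, with 8266 of 12207 tested genes having a window. Gene order was used without coordinates. CArG boxes were searched by sequence on both strands, as exact matches only.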

Additional observations from a re-analysis of the deposited data

Results flagged for a closer look

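Among 268 groups of 4 libraries examined, 18 held a library far from the other 3, and chance alone flags about 1 in 20 groups. Of these, 8 were Myocd-LSD1NF 4. It was low at 3979 TPM for Acta2 (10729 to 11982 in the other 3), 2292 TPM for Eln (7791 to 8543), 214 TPM for Tspan4 (238 to 241), 14.0 TPM for Ndrg1, a stress-responsive gene (42.9 to 45.8), 0.03 TPM for Shc2 (0.92 to 0.98) and 0 TPM for Ncmap (13.8 to 16.5). Myocd-LSD1NF 4 was high at 21.0 TPM for Tfap2a (10.3 to 12.1) and 3.72 TPM for Colec12 (0.36 to 0.54). Myocd-LSD1NF 2 was high at 6.49 TPM for Slc8a1 (5.02 to 5.23), 1.91 TPM for Ccnd2 (0.13 to 0.41) and 0.02 TPM for Heph (0 in the others), and Myocd-LSD1NF 1 at 3.61 TPM for Aspn (0 to 0.42).

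Among the controls, control 4 was low at 6.57 TPM for Omd (21.2 to 24.0), 6.02 TPM for Tbxa2r (9.66 to 10.1) and 79.4 TPM for Cd59 (124 to 133), and high at 52.97 TPM for Psat1, of serine synthesis (9.21 to 15.1). Control 2 was high at 42.4 TPM for Ccdc3 (4.76 to 8.99) and 43.8 TPM for Klf15, a Kruppel-like factor (25.2 to 26.7).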

How the results depend on the processing

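The number of genes called was 270 and stayed within 1.5 times that with pseudocounts of 0.1 and 5, no filter, both scalings, the replicate block, the fit of the compared groups alone with a replicate block and without the run of neighbouring genes. Testing only genes averaging 5 TPM gave 110 calls (30 higher, 80 lower, 60 of at least 2-fold), the compared groups alone gave 176 (131 lower), and array weights gave 919 (318 higher, 601 lower, 253 of at least 2-fold); fewer genes were tested under the filter, and otherwise the cause was not tested. The number called higher was 109 with median-of-ratios scaling, 95 with quantile normalization and 100 with the compared groups alone and a replicate block, beside 58. With a pseudocount of 5, 63 genes passed 2-fold, beside 150. Leaving out 1 library gave 109 to 312 calls, with 17 to 104 higher, 92 to 225 lower and 80 to 174 of at least 2-fold.

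Libraries of the same number were not taken as pairs, because the correlations of their deviations from the group means were 0.20, -0.08, 0.58 and 0.30. The replicate block gave 342 calls (82 higher, 260 lower), 242 of them among the 270. Myocd-LSD1NF 1 and 2 correlated best with control 2 and control 1, and the other numbers with their own.

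Of 85 called genes in the named set, 0 changed direction over the alternatives tried. Calls were lost by 34 of them with the compared groups alone, 26 with these and a replicate block, 21 with a pseudocount of 0.1, 19 with no filter, 14 with the 5 TPM filter, 10 with the replicate block, 8 under each scaling, 7 with a pseudocount of 5, 1 without the run, 0 with array weights, and 14 to 43 when a library was left out. Of 49 genes of that set not called, 24 were called under some alternative: 21 with array weights, 9 with the compared groups alone and a replicate block, 4 with median-of-ratios scaling, 3 with the compared groups alone, 3 with the replicate block, 1 each with quantile normalization and a pseudocount of 0.1, and up to 6 when a library was left out. Direction turned in 2 genes that were not called. Kdm1a was at 0.022 with median-of-ratios scaling, and between -0.097 and 0.013 when a library was left out, positive without Myocd-LSD1NF 4. Acta2 was at 0.034 with array weights, and between -0.33 and 0.20 when a library was left out, positive without Myocd-LSD1NF 4.

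Depth is unknown for TPM, so no counting error can be attached to low values such as those of Ckm or Msx2, and zeros are listed values only. With 4 libraries a group, calls rest on a spread shared with the other 2 groups.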

Other observations

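Of 6 genes tested from the MAGE family, best known from the germ line and tumours, 3 rose and 0 fell, beside 0.475% and 1.74% of all genes tested. The family was chosen after its values were seen, so the count supports nothing. Of those not called, Magee1 had a log2 fold change of 0.82, Maged2 of -0.45 and Maged1 of -0.14. Mageb4 had 1.64, 1.56, 1.99 and 3.18 TPM in Myocd-LSD1NF 1 to 4, against 0.65, 0.44, 0.91 and 1.16 TPM in control 1 to 4 (log2 fold change 0.78 ± 0.17, adjusted p = 0.0280), and was not called without control 1, 2 or 3 or Myocd-LSD1NF 3 (adjusted p = 0.0517 to 0.103). Magea11 had 3.36, 4.05, 4.69 and 2.64 TPM in Myocd-LSD1NF 1 to 4, against 1.14, 0.73, 0.92 and 2.23 TPM in control 1 to 4 (log2 fold change 1.08 ± 0.23, adjusted p = 0.0252), and was not called without control 1, 2 or 3 or Myocd-LSD1NF 2 or 3 (adjusted p = 0.0662 to 0.0930). The third was Mageh1.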
